A study of Mus musculus with 4 samples.

Results

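Tardbp, Ewsr1, Taf15, Matr3, Larp1, Larp4 and Larp4b encode RNA-binding proteins that govern how messenger RNAs are spliced, kept and translated. These 7 genes, of 51826 identifiers counted, were taken by symbol in C2C12 cells, a mouse myoblast line. The set was chosen on earlier results of the comparison described here, in which Tardbp and Larp4b had passed the test, and the other 5 genes belong to the same or related families. The fold changes below are therefore a description, and their p-values support nothing further. The study treated myoblasts kept in growth medium with recombinant GDF10, a growth factor related to the BMPs and TGF-beta, for 6 h, and compared them with myoblasts given vehicle for 6 h. No genetic change is named for either group, and the dose of GDF10 is not given in the sources used here. Each group held 2 libraries, described as biological replicates of this single cell line.

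TDP-43, the product of Tardbp, binds GU-rich RNA, controls splicing, and limits the amount of its own mRNA through sites in the 3′ untranslated region. EWSR1 and TAF15 are FET proteins, which bind RNA and transcription complexes in the nucleus and are known from gene fusions in sarcomas. Matrin 3, from Matr3, is a nuclear matrix protein that binds RNA and TDP-43, and inherited changes in it cause a distal myopathy. La-related proteins carry a La module: LARP1 binds mRNAs that begin with a terminal oligopyrimidine (TOP) tract, which encode ribosomal proteins and translation factors, while LARP4 and LARP4B bind poly(A)-rich mRNA and poly(A)-binding protein and stabilise transcripts.

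Total counts per library ranged from 29641165 to 35597310. At this depth 3 counts equal 0.0843 to 0.101 CPM (counts scaled to a common library size), and every one of the 7 genes had at least 1338 counts in each library. The myoblast markers Myod1, Myf5, Des, Itga7, Cdh15, Vim and Cdh2 summed to between 4100 and 4353 CPM. Most of that sum was Vim (2064 to 2297 CPM) and Des (1000 to 1043 CPM). Myod1 stood at 53.8 to 57.5 CPM and Myf5 at 22.7 to 26.9 CPM. The 11 markers of other cell types summed to between 6.65 and 9.72 CPM, mostly Tubb3 and Cd68. Of these 11, Epcam, Hbb-bs and Adipoq had 0 counts in all 4 libraries. The protocol for RNA extraction speaks of longissimus dorsi, whereas the other labels speak of C2C12. Library deviations correlated with exon length across genes at a Spearman rho of −0.33 in GDF10 1 and 0.08 in GDF10 2, and at 0.11 and 0.20 in vehicle 1 and vehicle 2; genes are not independent replicates.

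Within the set, Tardbp and Larp4b stood lower with GDF10, each by less than 2-fold, and the other 5 genes had libraries of the 2 groups that overlapped. Over all 15467 genes tested, both GDF10 libraries lay below both vehicle libraries in 2993 and above both in 2910. In the rest the groups overlapped, so overlap was the common case. TMM-scaled CPM, in which libraries are put on one scale by the trimmed mean of their ratios, is used for levels of single genes. With edgeR's quasi-likelihood test and a Benjamini-Hochberg threshold of 0.05, 2 of the 7 genes passed, both lower, where 0.162% of the 15467 genes tested passed in either direction. The median log2 fold change of the 7 genes was −0.18, beside 0.003 over all genes tested, and all 7 estimates were below 0, as were 49.2% of the estimates of all genes tested. Nothing is read from these counts, since the choice of genes used this contrast. In bulk RNA such as this, fewer cells of a kind and less RNA per cell cannot be told apart.

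Tardbp stood at 127 CPM in vehicle 1, 119.7 in vehicle 2, 72.1 in GDF10 1 and 72.1 in GDF10 2. Both GDF10 libraries were below both vehicle libraries, as they were in 19.4% of all genes tested. The means were 123 ± 5.12 CPM with vehicle and 72.1 ± 0.0126 with GDF10 (SD, n = 2 per group), a 1.71-fold difference. The log2 fold change was −0.77 with a standard error of 0.08 and an edgeR adjusted p of 0.0155, the 15th smallest p of all genes tested. Without vehicle replicate 1 the edgeR adjusted p was 0.134, and without vehicle replicate 2 it was 0.0683, the log2 fold changes being −0.73 and −0.82. Tardbp (ENSMUSG00000041459) lies on the minus strand of mm10 chromosome 4, from 148612382 to 148627019. Its exons cover 7796 bases, of which 1817 are shared with Masp2, a complement protease gene on the opposite strand. Masp2 had 38, 28, 31 and 29 counts in vehicle 1, vehicle 2, GDF10 1 and GDF10 2, against 4535, 3543, 2161 and 2514 for Tardbp. With the counts of both genes summed the log2 fold change was −0.77 (edgeR adjusted p = 0.0151).

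Larp4b, whose product binds the AU-rich and poly(A) parts of mRNAs, stood at 76.1 and 74.4 CPM in vehicle 1 and vehicle 2 and at 44.6 and 41.3 CPM in GDF10 1 and GDF10 2. Here too both GDF10 libraries lay below both vehicle libraries. The means were 75.3 ± 1.21 and 43.0 ± 2.36 CPM (SD, n = 2 per group), a 1.75-fold difference. Its log2 fold change was −0.81 with a standard error of 0.09, and the edgeR adjusted p was 0.0233. Without vehicle replicate 1 that adjusted p was 0.115, and without vehicle replicate 2 it was 0.0814, with log2 fold changes of −0.79 and −0.82 in these edgeR fits. Larp4b (ENSMUSG00000033499) lies on the plus strand of chromosome 13, from 9093881 to 9174451, and shares exon bases with no other annotated gene of the table.

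**Figure D1:**
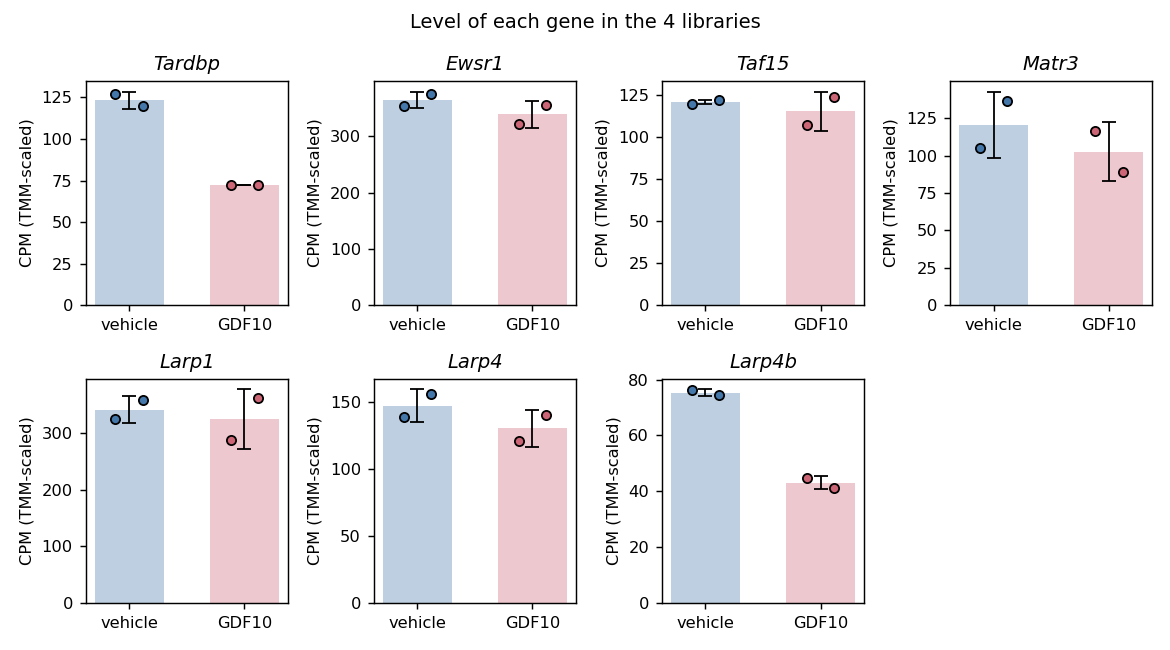
TMM-scaled CPM (y axes, each from 0) of the 7 genes in the 2 groups on the x axes; points are libraries, bars are group means and error bars are SD (n = 2 per group). Tardbp and Larp4b have both GDF10 points below both vehicle points, and in the other 5 panels the points of the groups overlap.

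The promoters of Tardbp and Larp4b are shown because these 2 genes had the lower values with GDF10. Both runs come from RefSeq's GRCm38.p6 table, which held 6 of the 7 genes (Matr3 was not matched). They read 5′ to 3′ on the strand of the gene and end just before the annotated start; for Tardbp, 23 bases that GENCODE places inside a transcript were left out. Capitals mark the GC box GGGCGG on either strand.
Tardbp, chr4:148627020-148627246, minus strand: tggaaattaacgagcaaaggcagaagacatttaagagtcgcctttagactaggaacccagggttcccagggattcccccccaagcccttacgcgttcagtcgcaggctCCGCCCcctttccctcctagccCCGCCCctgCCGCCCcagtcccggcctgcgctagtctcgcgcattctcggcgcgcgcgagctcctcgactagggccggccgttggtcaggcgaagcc
Larp4b, chr13:9093631-9093880, plus strand: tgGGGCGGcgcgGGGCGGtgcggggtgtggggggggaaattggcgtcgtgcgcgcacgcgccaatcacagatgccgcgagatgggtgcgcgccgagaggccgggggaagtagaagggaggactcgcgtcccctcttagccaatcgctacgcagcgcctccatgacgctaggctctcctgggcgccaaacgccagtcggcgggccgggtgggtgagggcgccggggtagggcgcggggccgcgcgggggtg

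The 227 bases of Tardbp held 3 GC boxes and the 250 bases of Larp4b held 2, and GC content was 64.3% and 74.0%. A GC box was found in 32.7% of the 32851 promoter windows of 250 bases in the table. CAGAC, a form of the SMAD-binding element, was searched on both strands because SMAD proteins act downstream of the TGF-beta superfamily. It was in neither printed window, and in 42.2% of all windows. GGCGCC, a form of the GC-rich SMAD element, was found 2 times in Larp4b and 0 times in Tardbp, and in 9.60% of all windows. Shorter forms of either element were not counted, so these counts do not show that a window lacks them. CCAAT occurred 3 times in Larp4b, 0 times in Tardbp and in 33.8% of all windows. Of the other genes of the set with a window, Larp1 had 7 GC boxes, Larp4 2, Taf15 1 and Ewsr1 0. CAGAC was found 1 time each in Larp1 and Larp4, GGCGCC 1 time in Ewsr1 and CCAAT 2 times in Taf15. The rest of these counts were 0. All windows of the table were counted, whether or not the gene was tested. GGGCGG and GGCGCC can overlap. A match to letters is a description of the window and not a bound site.

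Ewsr1 and Taf15, of the FET family, had groups that overlapped and small estimated differences. Ewsr1 stood at 354 and 375 CPM in vehicle 1 and vehicle 2 and at 322 and 355 CPM in GDF10 1 and GDF10 2. Its log2 fold change was −0.11, with a 95% interval of −0.29 to 0.08 (edgeR adjusted p = 0.848). Leaving out GDF10 replicate 1 or 2 moved the value of Ewsr1 to −0.04 or −0.18, and leaving out vehicle replicate 2 to −0.06. Taf15 stood at 120.0 and 121.9 CPM with vehicle and at 107 and 124 CPM with GDF10, so that GDF10 2 lay above both vehicle libraries and GDF10 1 below them. The log2 fold change of Taf15 was −0.07, with a 95% interval of −0.28 to 0.14 (edgeR adjusted p = 0.905). The log2 fold change of Taf15 was 0.03 without GDF10 replicate 1 and −0.17 without GDF10 replicate 2. The 95% intervals of both genes leave out a change as large as the estimate for Tardbp. That estimate belongs to a gene picked on this contrast, so the difference from Tardbp was not tested. Ewsr1 (ENSMUSG00000009079) spans 5069689 to 5099266 on the minus strand of chromosome 11 and shares 258 exon bases with Rhbdd3, a gene of the rhomboid family on the opposite strand, which had 588 to 733 counts per library. Taf15 (ENSMUSG00000020680) spans 83473086 to 83506743 on the plus strand of the same chromosome.

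Counts of Taf15 as a share of Taf15 and Ewsr1 together held a narrow range. The shares were 25.3% in vehicle 1 (95% Wilson interval 24.7 to 25.99), 24.6% in vehicle 2 (23.9 to 25.3), 25.0% in GDF10 1 (24.2 to 25.7) and 25.8% in GDF10 2 (25.2 to 26.5). The intervals cover counting error only, and no molecular identifiers are named for these libraries. Such shares are of counts and are not corrected for the different lengths of the mRNAs.

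Matr3 was the most variable gene of the set. It stood at 105 CPM in vehicle 1, 136 in vehicle 2, 117 in GDF10 1 and 88.7 in GDF10 2. Between the vehicle libraries it differed by 0.38 on the log2 scale and between the GDF10 libraries by 0.39, while the median absolute difference over all genes tested was 0.12 in the vehicle pair and 0.16 in the GDF10 pair. The log2 fold change was −0.23, with a 95% interval of −0.77 to 0.31 (edgeR adjusted p = 0.868), and the lower end of that interval lay next to the estimate for Tardbp. Leaving out vehicle replicate 1 or 2 gave −0.41 or −0.03, and leaving out GDF10 replicate 1 or 2 gave −0.44 or −0.05. Matr3 (ENSMUSG00000037236) spans 35562138 to 35593835 on the plus strand of chromosome 18. The pseudogene Matr3-ps2 had 2 counts in vehicle 1 and 0 in the other libraries.

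Larp1, the TOP mRNA regulator, stood at 325 and 358 CPM in vehicle 1 and vehicle 2 and at 288 and 362 CPM in GDF10 1 and GDF10 2. The GDF10 libraries of Larp1 lay on either side of both vehicle libraries, and they differed from each other by 0.33 on the log2 scale. Its log2 fold change was −0.07, with a 95% interval of −0.37 to 0.23 (edgeR adjusted p = 0.924), and 0.08 without GDF10 replicate 1. Leaving out GDF10 replicate 2 gave −0.25 for Larp1, and leaving out vehicle replicate 1 or 2 gave −0.14 or −0.0017. Larp1 (ENSMUSG00000037331) spans 58009064 to 58062034 on the plus strand of chromosome 11.

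Larp4, the closest relative of Larp4b in the set, stood at 139 and 156 CPM with vehicle and at 121 and 140 CPM with GDF10. GDF10 2 exceeded vehicle 1 by little, and the groups overlapped. The log2 fold change of Larp4 was −0.18, with a 95% interval of −0.41 to 0.06 (edgeR adjusted p = 0.833). The 95% interval of Larp4b was −1.01 to −0.60. Leaving out GDF10 replicate 1 or 2 moved the value of Larp4 to −0.07 or −0.29, and leaving out vehicle replicate 2 to −0.09. The difference between Larp4 and Larp4b was not tested, because Larp4b was picked on this contrast. Larp4 (ENSMUSG00000023025) spans 99970065 to 100016358 on the plus strand of chromosome 15 and shares 204 exon bases with the antisense gene 2310068J16Rik, which had 13 to 21 counts per library.

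As a share of the counts of Larp4 and Larp4b together, Larp4b made up 35.4% in vehicle 1 (95% Wilson interval 34.4 to 36.5) and 32.3% in vehicle 2 (31.2 to 33.4). With GDF10 the share was 27.0% in GDF10 1 (25.8 to 28.3) and 22.8% in GDF10 2 (21.7 to 23.8). Both GDF10 shares were below both vehicle shares, and the replicates of each group also differed beyond counting error. The share restates the lower counts of Larp4b beside a relative counted in the same libraries.

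**Figure D2:**
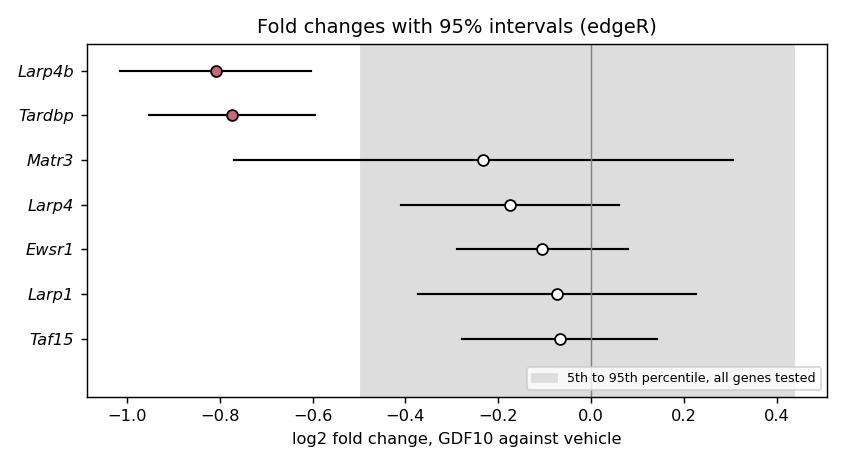
Log2 fold change of GDF10 against vehicle (x axis) for each of the 7 genes (y axis), with 95% intervals from edgeR; filled points passed an adjusted p of 0.05, and the grey band runs from the 5th to the 95th percentile of all genes tested, −0.50 to 0.44. The estimates of Tardbp and Larp4b lie outside the band, and the interval of Matr3 reaches beyond it.

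Levels of different genes were compared per length, as CPM per kilobase of annotated exon. On this scale Ewsr1 was highest in all 4 libraries, from 54.5 to 63.4, followed by Larp1 from 42.1 to 53.0 and Taf15 from 36.7 to 42.4. Larp1 and Taf15 touched, since the lowest library of Larp1 was below the highest of Taf15. All 3 were above the 90th percentile of coding genes tested, at 93.7 for Ewsr1, 92.0 for Larp1 and 90.2 for Taf15.

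Larp4, Tardbp and Matr3 formed a lower band on the per-kilobase scale, with overlapping libraries. Larp4 ranged from 11.1 to 14.4 and Matr3 from 8.74 to 13.4. Tardbp was 16.3 and 15.4 in vehicle 1 and vehicle 2, which put it at place 4 of the 7 genes in both, and 9.25 in each GDF10 library, at place 6 in GDF10 1 and place 5 in GDF10 2. Larp4b was lowest in all 4 libraries, at 8.99 and 8.79 with vehicle and 5.27 and 4.88 with GDF10. Even so, Larp4b averaged at the 52.5th percentile of coding genes tested, and Tardbp at the 68.4th. The order within these bands changed with the length used. Without any length, the bands themselves did not hold, since Larp4 was at place 3 and Taf15 at place 4.

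**Figure D3:**
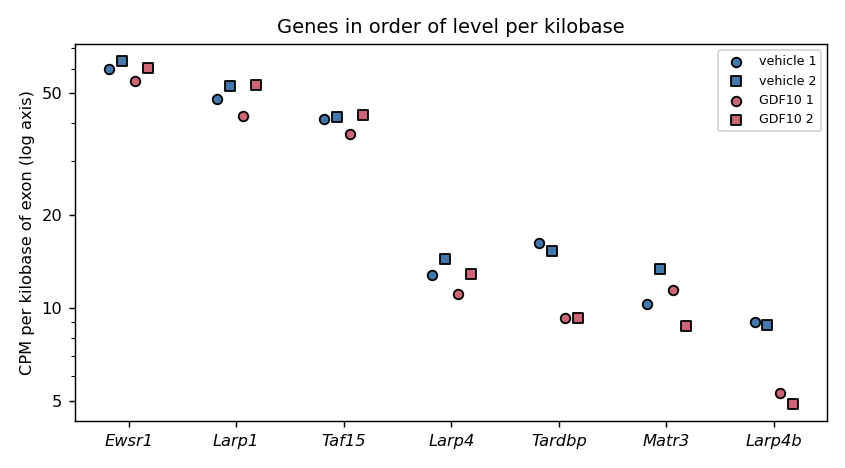
CPM per kilobase of exon (y axis, log scale) of the 7 genes, ordered by their mean over the 4 libraries (x axis); colours are groups, circles are replicate 1 and squares replicate 2. Ewsr1, Larp1 and Taf15 lie between 36.7 and 63.4, apart from the other 4 genes, which lie between 4.88 and 16.3.

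The mRNAs of the set differed in their 3′ untranslated regions, taken here from the GENCODE transcript with the longest coding sequence. Tardbp had 5879 bases of 3′ untranslated region after 1242 coding bases, longer than in 98.1% of 12748 coding genes tested. Larp4, Matr3, Larp1 and Larp4b had 4184, 3405, 3269 and 3046 bases, against a median of 931. The FET genes were at the other end, with 167 bases in Ewsr1 and 286 in Taf15. TGTGTG, the DNA letters of the GU repeat that TDP-43 binds, occurred 17 times in this region of Larp1, 6 times in Tardbp, 5 in Larp4, 4 in Larp4b, 2 in Matr3 and 0 times in Ewsr1 and Taf15, overlapping matches included and on the transcript strand only. The median count over the 12748 coding genes was 0. For values per kilobase, genes with a very short 3′ untranslated region were left out. Larp1 had 5.20 per kilobase and stood above 94.6% of the remaining coding genes, Tardbp had 1.02, and the median was 0.346. Whether these lengths bear on the levels was not tested.

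GC content of the longest transcript was 41.8% in Tardbp and 44.9% in Larp4b, and 38.7% in Larp4 and 38.6% in Matr3. Of these, Matr3 stood at percentile 3 of coding genes tested, Larp4 at 3.3, Tardbp at 11.7 and Larp4b at 25.2. It was 49.5% to 53.7% in Taf15, Ewsr1 and Larp1. Library deviations followed GC content at a Spearman rho of −0.15 and −0.20 in vehicle 1 and vehicle 2, and of 0.15 and 0.17 in GDF10 1 and GDF10 2, which splits the libraries as the groups do, so the GC trend and the exon length trend were each entered as offsets in the edgeR fit, an alternative chosen after seeing the data. Tardbp then had a log2 fold change of −0.70 with the length offset (edgeR adjusted p = 0.0165) and −0.69 with the GC offset (edgeR adjusted p = 0.0280). Larp4b had −0.73 (edgeR adjusted p = 0.0446) and −0.76 (edgeR adjusted p = 0.0301). With the trends removed in limma on log2 CPM, the alternative planned for this check, neither gene passed. The limma adjusted p of Tardbp was 0.0711 with the length trend removed and 0.101 with the GC trend removed, and that of Larp4b 0.156 and 0.101. In limma with no trend removed they were 0.0550 for Tardbp and 0.0752 for Larp4b. With the length and the GC offset, Larp4 went from −0.18 to −0.07 and −0.05, and Matr3 from −0.23 to −0.12 and −0.10. Ewsr1 went from −0.11 to −0.07 and −0.13, Taf15 from −0.07 to −0.08 and −0.05, and Larp1 from −0.07 to −0.02 and −0.10.

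**Figure D4:**
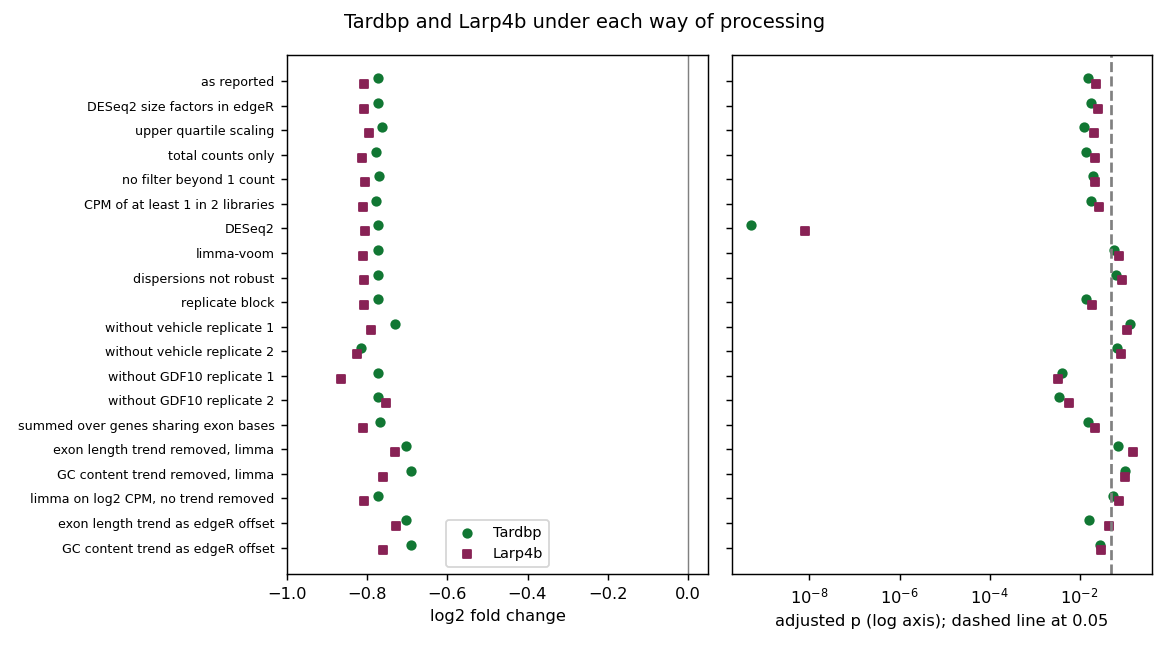
Log2 fold change (left x axis) and adjusted p (right x axis, log scale, dashed line at 0.05) of Tardbp and Larp4b for the fit as reported and 19 alternatives (y axis). Every fold change lies between −0.87 and −0.69, while the adjusted p passes 0.05 in 12 of the 19 alternatives for each gene.

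The genes most like Tardbp across the 4 libraries were found by the Euclidean distance between log2 CPM deviations from each gene's mean, among 9714 other genes with a mean of at least 10 CPM. Efna1, an ephrin ligand gene, was nearest at a distance of 0.0935, followed by Larp4b at 0.0942, Smurf1, a ubiquitin ligase gene of SMAD signalling, at 0.116, Dcaf10 at 0.133 and Spc25, a kinetochore gene, at 0.134. For Larp4b the nearest was Tardbp at 0.0942, and near it too were Smurf1 at 0.143, Slc25a51, the mitochondrial NAD carrier gene, at 0.155 and Dcaf10 at 0.160. With 4 libraries many genes share a pattern, and the distance is a description. Tardbp and Larp4b were chosen after both had passed in these same libraries, so nothing is read from their nearness. Efna1 stood at 33.8 and 30.7 CPM with vehicle and at 17.6 and 18.9 CPM with GDF10. Smurf1 stood at 146 and 153 CPM with vehicle and at 87.8 and 90.2 CPM with GDF10. Dcaf10, whose product is a substrate receptor of a ubiquitin ligase, was near both genes, at 25.5 and 25.2 CPM against 16.4 and 15.8.

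Genes that work with these proteins were taken as 9 lists, which are related to the 7 genes by function. Of 107 distinct genes, all tested, 0 passed in edgeR, in DESeq2 or in limma-voom. Over all 15467 genes tested, 25 passed in edgeR, 56 in DESeq2 and 11 in limma-voom. With shares that small, 0 of 107 is near the share over all genes, and nothing is read from it. At an unadjusted p under 0.05 in edgeR, 8 of the 107 were lower (7.48%) and 1 was higher (0.93%), while 540 of all genes tested were lower (3.49%) and 378 higher (2.44%). In DESeq2 8 of the 107 reached that p (7.48%), beside 614 of all genes (3.97%), and in limma-voom 8 did, beside 870 of all genes (5.62%). Estimates were below 0 in 56.1% of the list genes and in 49.2% of all genes tested, the share beside which the counts of each list are to be read. The values below are therefore levels and estimates of genes that did not pass.

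Of 4 other La and La-related genes, 2 had estimates above 0 and 2 below, with a median log2 fold change of 0.04 and 0 at an unadjusted p under 0.05 in edgeR. Ssb, which encodes the La protein that guards the ends of small RNAs, stood at 111 and 112 CPM with vehicle and 97.8 and 101 CPM with GDF10. Larp1b, the closest relative of Larp1, stood at 13.4 and 14.2 CPM with vehicle and at 15.3 and 16.01 CPM with GDF10. Larp7, which protects the 7SK RNA, averaged 55.4 ± 3.11 and 52.6 ± 3.23 CPM (SD, n = 2 per group), with groups that overlapped.

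Of 12 hnRNP genes, whose products coat nascent RNA beside TDP-43, 7 had estimates below 0 and 5 above. At an unadjusted p under 0.05, edgeR put 1 of them lower, Hnrnpa3. The median log2 fold change was −0.10. Hnrnpa3 stood at 555 and 546 CPM with vehicle and 443 and 495 CPM with GDF10 (log2 fold change −0.23), Hnrnph1 had an estimate of −0.21 and Hnrnpa2b1 of −0.12. Among 13 paraspeckle and nuclear matrix genes 10 estimates were below 0, with a median of −0.04 and 0 at an unadjusted p under 0.05 in edgeR. Neat1, the RNA on which paraspeckles form, averaged 361 ± 12.5 and 333 ± 38.2 CPM, and Safb2, a scaffold attachment factor, had a log2 fold change of −0.24.

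Of 18 stress granule genes 9 estimates were above 0 and 9 below, with a median of −0.01 and 2 lower at an unadjusted p under 0.05 in edgeR. Those were Ddx3x, an RNA helicase gene (log2 fold change −0.26, edgeR adjusted p = 0.815), and Nufip2 (−0.22, edgeR adjusted p = 0.825). Of 16 genes of poly(A) binding and deadenylation, the process that LARP4 proteins counter, the median was 0.007 and 1 was lower at an unadjusted p under 0.05. Cnot1, the scaffold of the CCR4-NOT deadenylase, stood at 206 and 198 CPM with vehicle and 156 and 176 CPM with GDF10 (log2 fold change −0.28, edgeR adjusted p = 0.789).

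The TOP mRNAs that LARP1 binds were represented by 16 genes, most of them of translation factors, with a median of 0.03. At an unadjusted p under 0.05 in edgeR 1 was higher, Eif3f (log2 fold change 0.21), and 2 were lower, Npm1 (−0.18) and Nap1l1 (−0.21). In 10 genes of mTORC1, the kinase complex that controls LARP1, and of its translation effectors, the median was 0.003 and 0 reached that p; Eif4ebp1, a translation repressor gene, had an estimate of 0.21. Of 9 genes whose splicing or level is reported to depend on TDP-43, 5 estimates were below 0 and 4 above, with a median of −0.07 and 0 at an unadjusted p under 0.05 in edgeR. The lowest p there belonged to Dnajc5 (−0.15), Tbc1d1 (−0.13) and Nefl (−0.17). Counts per gene do not show splicing. In 11 nuclear import receptor genes 10 estimates were below 0, with a median of −0.09 and 2 lower at an unadjusted p under 0.05 in edgeR, Kpna3 (−0.22) and Ipo7 (−0.25).

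**Figure D5:**
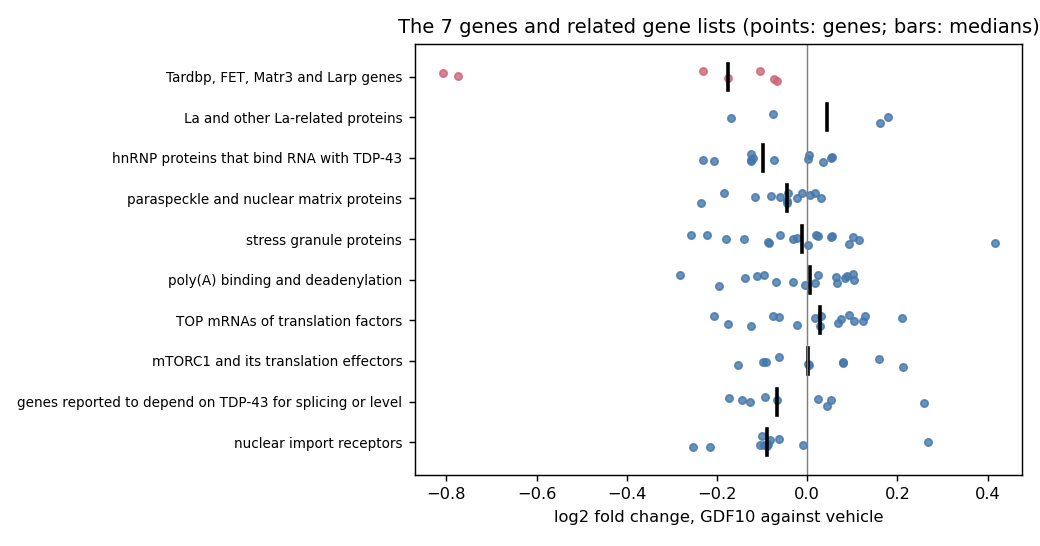
Log2 fold change of GDF10 against vehicle (x axis) for the 7 genes and for the genes of 9 related lists (y axis); each point is a gene and each bar the median of its list. Tardbp and Larp4b lie near −0.8, and the list genes lie between −0.28 and 0.42.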

How the data were processed

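RNA was sequenced from 4 C2C12 libraries. The authors deposited raw counts for each Ensembl gene as whole numbers, with no normalization. The build mm10, the aligner HISAT2 2.0 and the assembler StringTie 1.3.3b are listed in the submitters' processing notes, with no order or role. Which program counted the reads, with which annotation and whether by strand, is not given in the sources used here, so reads of overlapping genes may be assigned to either. The columns Con and GDF10 were matched to the titles by group and number. Of 51826 identifiers, 51633 were found in GENCODE M21.

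The test was edgeR 4.0.16 in R 4.3.3 (filterByExpr, TMM, robust glmQLFit and glmQLFTest, no covariates), with Benjamini-Hochberg adjustment over 15467 genes and a threshold of 0.05. Standard errors are the log2 fold change over the square root of F. The p-values weigh the group difference against the spread within groups, with each gene's dispersion moderated by that of all genes tested. They apply to these 4 libraries only. DESeq2 1.42.0, limma 3.58.1, other scalings and filters, a replicate block and each library left out were alternatives. No library repeats another: chi-square per degree of freedom was 14.9 to 29.2 over all pairs. It was 14.9 for the vehicle pair and 27.2 for the GDF10 pair. GDF10 2 had 20.65 with vehicle 1 and 16.1 with vehicle 2, and GDF10 1 had 23.2 and 29.2. By this measure GDF10 2 was closer to either vehicle library than to GDF10 1. The test was tried on simulated counts, where it recovered 37.2% of genes changed 1.5-fold and 88.4% of genes changed 2-fold. Of its calls there, 3.44% were false. The simulated counts left out each gene's own spread and the length and GC trends, so these shares may not hold for the real libraries.

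The 7 genes and the lists were chosen with earlier results of these data known. The text names the 7 genes, up to 3 genes of lowest p per list, genes among the 5 nearest to Tardbp and to Larp4b, and genes sharing their exons or named as their pseudogenes. Some genes that these rules cover are not reported here.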

Additional observations from a re-analysis of the deposited data

How the results depend on the processing

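The 7 genes kept negative estimates in all 19 alternatives, except that without GDF10 replicate 1 Taf15 had a log2 fold change of 0.032 and Larp1 of 0.084. Leaving out 1 library gave −0.174 to 0.032 for Taf15 and −0.247 to 0.084 for Larp1. Tardbp ranged from −0.82 to −0.69, with adjusted p from 4.99e-10 with DESeq2 to 0.134, and Larp4b from −0.87 to −0.73, with adjusted p from 7.96e-09 with DESeq2 to 0.156. Of the 7 genes 0 passed with limma-voom, with dispersions not robust, and with limma on log2 CPM, whether no trend, that with exon length or that with GC content was taken out, and the 4 edgeR fits without 1 library gave 0 to 2 (0 without either vehicle library); the cause was not tested. Over all genes 25 passed, 56 with DESeq2, 11 with limma-voom, 9 with dispersions not robust, 9 with limma with no trend removed, a fit chosen after seeing the data, and 9 with the GC trend removed, 13 when genes with common exon bases were summed, 6 at an adjusted p of 0.01, and 27 to 224 without 1 library (44 without vehicle 2, 112 without GDF10 1, 224 without GDF10 2), the lone library being taken to vary like the other group. With the replicate number as a block 23 genes passed, 20 of them among the 25, and Tardbp and Larp4b passed (0.0140 and 0.0191); same-numbered libraries deviated together at a correlation of 0.07, so their numbers are not taken to pair them. By mean level, Taf15 was 3 in order per kilobase of exon, 2 per kilobase of longest transcript and 4 without length, Larp1 was 2, 3 and 2, Larp4 was 4, 4 and 3, Tardbp 5, 6 and 6 and Matr3 6, 5 and 5. The 2 libraries a group limit the precision to the intervals given.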
